A study of Mus musculus with 26 samples.

Results

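The 3 interscapular clones of the study, BAT1, BAT6 and BAT8, were set against the 8 of its 23 inguinal clones that had the highest Adipoq, the gene of the adipocyte hormone adiponectin. These 11 clones were 11 of 26 in all. Every clone was an immortalized clonal mouse adipose line of background strain 129SVE, and each line stands for 1 clone on 1 Affymetrix array. Per the labels' protocols, all 26 lines were fully differentiated and then given forskolin, an activator of adenylyl cyclase that raises cAMP, for 4 h before total RNA was taken. No line without forskolin and no undifferentiated line was among them, and the dose is 10 micromolar in the series text but 10 millimolar in the sample protocols. BAT1, BAT6 and BAT8 therefore differed from the inguinal lines by depot of origin and by nothing else that the labels name. The labels do not say which inguinal lines are beige and which are white.

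Values were log2(intensity + 16), which compresses differences of dim genes. The inguinal clones were chosen by their measured Adipoq, which is given here as a description only. It stood at 14.13 in D12, 13.94 in D16, 13.91 in M3 and 13.77 in E4. It stood at 13.69 in M4, 13.66 in B13, 13.64 in X3 and 13.62 in F9, the last clone taken. The first clones left out, G23 with 13.61, G12 with 13.60 and X9 with 13.51, were close behind F9, and the lowest of the 15 was I2 with 9.19. Among the interscapular clones Adipoq was 13.92 in BAT1, 13.57 in BAT6 and 12.66 in BAT8. BAT1 lay within the range of the 8 inguinal clones, BAT6 just below it and BAT8 about a log2 unit below it, so the depots were matched on Adipoq in BAT1 and nearly in BAT6, but not in BAT8.

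**Figure D1:**
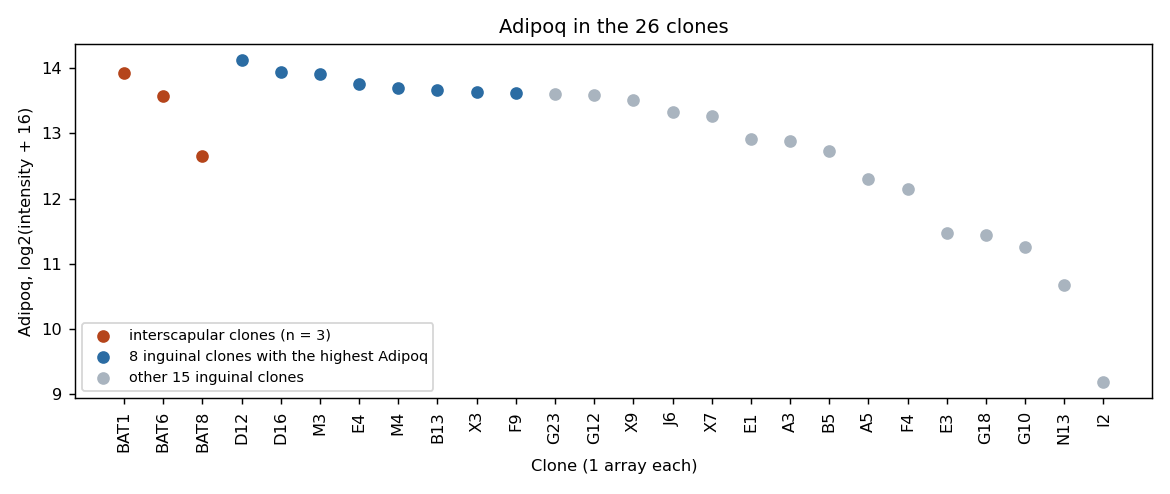
Adipoq level, log2(intensity + 16), on the vertical axis for each of the 26 clones (1 point and 1 array a clone), with the interscapular clones on the left, the 8 inguinal clones with the highest Adipoq in the middle and the other 15 inguinal clones on the right. BAT1 (13.92) lies among the 8 inguinal clones (13.62 to 14.13), while BAT8 (12.66) lies below all of them.

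Brown fat, of which the interscapular depot is the classical site in the mouse, burns fuel for heat through uncoupling protein 1 (Ucp1) in its mitochondria. The inguinal depot is mostly white fat, which stores triglyceride, and holds beige cells that can take on brown features after cold or adrenergic stimulation, both of which act through cAMP. Cells of each depot also keep a positional identity, written in part in Hox genes, whose order along their clusters follows the body axis from head to tail.

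The 11 arrays had medians of 41.0 to 45.5 intensity units and were not rescaled. Array BAT6 stood apart in RNA quality, with a Gapdh 3' to 5' probe ratio of 4.51 on the log2 scale against -0.13 in BAT1 and -0.15 in BAT8 and -0.16 to 0.67 in the 8 inguinal clones. Its Actb ratio, 1.15, also exceeded the highest of the 8 inguinal clones, 0.97. Values without BAT6 are given below for the named genes whose call they change, and for most lists. Scan sessions, scanners, chip lots and fluidics stations mixed the depots unevenly. BAT1 and BAT8 shared scan session 1 with 6 inguinal clones, and BAT6 shared session 2 with D16 alone. BAT8 shared scanner 1 with 5 inguinal clones and BAT1 and BAT6 shared scanner 2 with 3. BAT1 and BAT6 were alone on fluidics station 8, 6 of the 8 inguinal clones were on stations that held no interscapular clone, and only station 1 held both depots (BAT8 with B13 and X3), so fluidics station and depot largely cannot be told apart. Chip lot 2 held BAT1 and BAT8 with M3 and M4, and lot 4 held BAT6 with D16. Each clone has 1 array, so a p-value here rests on the spread between clones and between arrays together, which cannot be told apart.

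Genes of mature fat cells had small differences in both directions. Fabp4, the fatty acid binding protein of adipocytes, was 14.67 in BAT1, 14.46 in BAT6 and 13.96 in BAT8, with a lowest, median and highest of 14.27, 14.44 and 14.65 in the 8 inguinal clones. Over the 23 inguinal clones Fabp4 followed Adipoq most closely of all genes (Pearson r = 0.949, a description over arrays that share the gene used for selection). The next in likeness were Agt, which encodes angiotensinogen (r = 0.932), Hp, which encodes haptoglobin (0.930), Lrg1, the adipogenic factor Cebpa, Cdo1, Adig, Aplp2, the growth hormone receptor gene Ghr, and Tgm2. Against the 8 inguinal clones the interscapular mean differed by -0.08 for Fabp4, 0.11 for Agt and 0.04 for Adig. Against all 23, which include the same 8, these differences were 0.58, 1.78 and 1.49. Cdo1, Tgm2 and Lrg1 stood 0.86, 0.87 and 0.54 above the 8, and Cebpa and Ghr -0.71 and -0.74 relative to them. In RNA from whole cultures, fewer mature fat cells and less RNA per cell cannot be told apart.

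Of 27 general adipocyte genes, 22 passed the filter on dim genes (above the median of their array in at least 3 of the 11). Because they move with Adipoq they are described and not tested. Their median difference was 0.09 against the 8 clones and 0.66 against all 23, beside -0.01 and -0.02 over the 12102 genes kept. Without BAT6 the first was 0.08. Against the 8 clones 14 of the 22 had a positive and 8 a negative difference. The mean of the 22 on the array other than Adipoq was 10.79 in BAT1, 10.42 in BAT6 and 10.004 in BAT8, against 9.91 to 10.67 in the 8 inguinal clones, so the depots overlapped. Klb, which encodes the co-receptor beta-Klotho through which Fgf21 signals, was an exception at 9.29 in BAT1, 9.25 in BAT6 and 8.51 in BAT8, above the 5.49 to 6.89 of the inguinal clones, and a second, much dimmer probe set of Klb differed by 0.01. Cd36, a fatty acid transporter, was also above all 8 in each interscapular clone (12.96 in BAT1, 12.71 in BAT6 and 12.48 in BAT8, against at most 12.22). So was Pparg, the master regulator of adipogenesis, with 11.42 in BAT1, 11.22 in BAT6 and 11.28 in BAT8 against at most 11.13. Pparg and Cd36 were thus above the inguinal range also in BAT8, the clone with the least Adipoq of the 11. The lowest of the general adipocyte genes were Dgat1, which makes triglyceride, with 12.01 in BAT1, 10.77 in BAT6 and 11.46 in BAT8 against 11.88, 12.33 and 12.72 (difference -0.92), and Agpat2, of the same pathway (difference -0.70). The lipogenesis genes, 19 of 19 kept, had a median of 0.33 (0.27 without BAT6) and ranged from -1.33 for Pck1 to 0.69 for Lpin1.

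Across all 12102 genes, 499 (4.12%) differed between the 3 interscapular and the 8 inguinal clones (limma with Benjamini-Hochberg adjustment, two-sided, threshold 0.05). Higher in interscapular clones were 233 (1.93%), and lower 266 (2.2%). The difference reached 1 log2 unit in 292 (2.41%). All 3 interscapular clones lay above all 8 inguinal clones in 416 genes (3.44%) and below them in 431 (3.56%), together 847 (7%). Among the 499, 18 were above the array median in none of the 8 inguinal clones and 50 in none of the 3 interscapular clones. These passed the filter through 1 depot only, so their differences are set against background signal. The 50 include Akr1cl, Armh4, Casp1, Cdc6, Csf2rb, Sall1, Tbx1 and Tmem26, all named below. Of the 499, 130 passed without each of the 11 clones in turn, 54 higher and 76 lower. The total was 201 without BAT6, 227 without BAT8 and 398 without BAT1, and it was 320 without M3, the lowest among the inguinal clones left out. Within scan session 1 (2 interscapular and 6 inguinal clones) 207 genes passed, within scanner 1 65 passed, within scanner 2 112 and within chip lot 2, 41. With the chip lot as a block the genes that differ between depots were 188, and with the fluidics station as a block 32. The comparison with all 23 inguinal clones, which shares the interscapular arrays and the 8 inguinal ones, called 1303 genes (10.8%), and all 26 arrays with Adipoq as a covariate called 1257 (10.4%).

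The 15 genes with the largest difference each way, among those that passed and did not overlap, carry most of the account below. All 30, Klb included, kept their direction, and at least 1 log2 unit, under each of the leave-outs, batch fits and processing alternatives in which they were measured. They were picked from these same arrays for size and lack of overlap. Their direction in any subset of the 11 clones was therefore fixed in advance and is no support. With the fluidics station as a block 14 of the 30 passed, and with the chip lot as a block 27. Within scan session 1, 28 of the 30 passed, 22 within scanner 1, 20 within scanner 2 and 15 within chip lot 2. In session 2, with 1 clone of each depot and no test, the smallest of the 30 was 1.02, for Ptn. Only Pgf and Ptn lost the call when 1 of the 11 clones was left out.

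**Figure D2:**
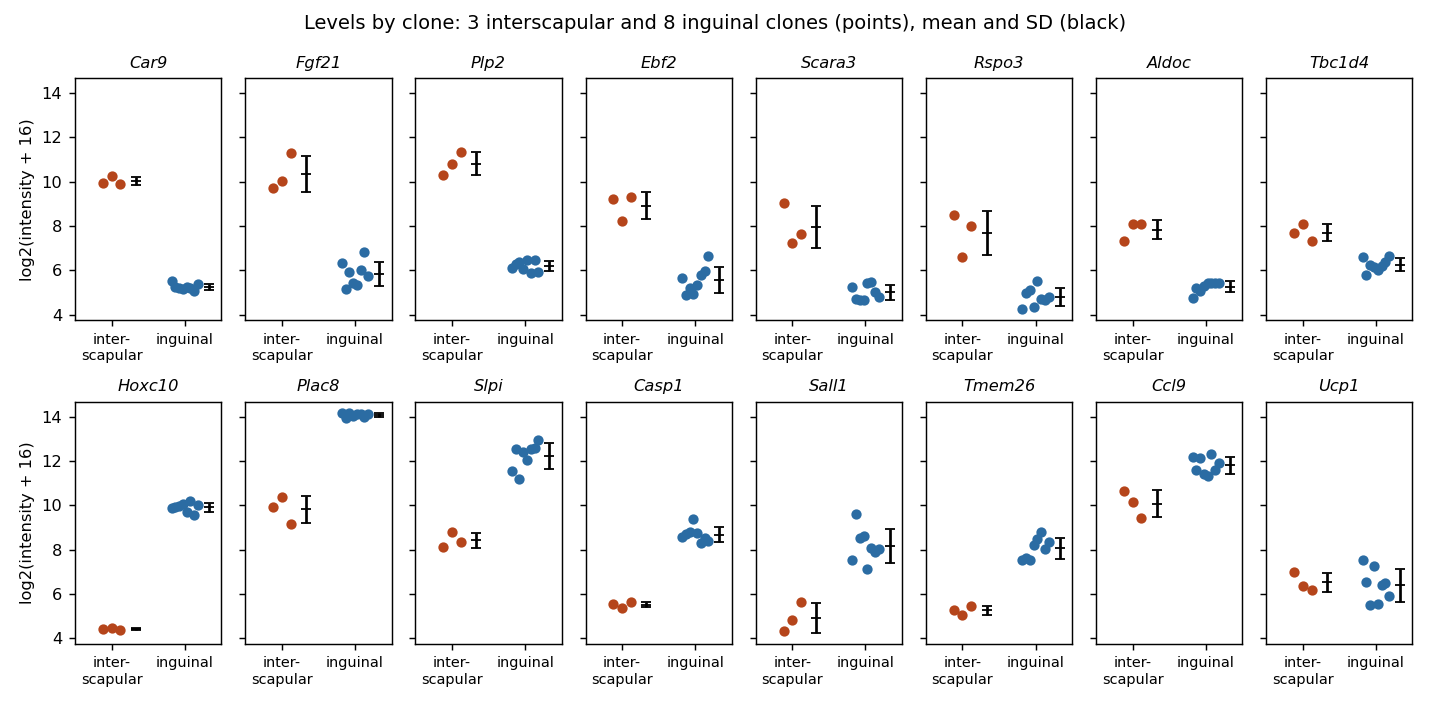
Levels of 16 genes, log2(intensity + 16), with 1 point a clone, interscapular clones (n = 3) left and the 8 inguinal clones right in each panel, and the mean and SD in black. The depots do not overlap in 15 panels, for example Car9 at 9.89 to 10.24 against 5.05 to 5.52, and they overlap for Ucp1, at 6.19 to 7.01 against 5.51 to 7.55.

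Car9, a membrane carbonic anhydrase that extrudes acid and is a classical target of hypoxia-inducible factors, was the gene with the largest rise. It was 9.94 in BAT1, 10.24 in BAT6 and 9.89 in BAT8, against a lowest, median and highest of 5.05, 5.22 and 5.52 in the inguinal clones. None of the 8 rose above the median of its array, so the size of the difference, 4.77 ± 0.15 (SE, limma adjusted p = 1.61e-10), is set against background signal. Depp1, a gene induced by FoxO factors and by low oxygen, was 8.31 in BAT1, 11.11 in BAT6 and 10.65 in BAT8, against 4.52, 5.58 and 6.99. BAT1 was the lowest of the 3 and still above each inguinal clone (difference 4.40 ± 0.58 (SE), limma adjusted p = 0.000755), and a second probe set differed by 4.37.

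Of 17 hypoxia response genes kept, 4 rose and none fell (23.5% against 1.93% of all genes called higher), with a median of 0.24 (0.33 without BAT6). The list mean, Car9 and Depp1 included, was 11.29 in BAT1, 11.68 in BAT6 and 11.79 in BAT8 against 10.44 to 11.06. Car9 and Depp1 were picked for size, so this gap does not show that the other members separated the depots. Of the 17, 4 lay above all 8 inguinal clones in each interscapular clone, beside 3.44% of all genes. By sign, 12 had a positive and 5 a negative difference. The other risers were Car12, a second membrane carbonic anhydrase (difference 1.86 ± 0.42 (SE), limma adjusted p = 0.0266), and Epas1, which encodes HIF-2alpha (difference 1.30 ± 0.34 (SE), limma adjusted p = 0.0478). Neither held without BAT6 (Car12 adjusted p = 0.0893, Epas1 0.259) or BAT8 (0.108 and 0.203). Epas1 also missed the threshold without any 1 of B13, D12, E4, F9, M3, M4 and X3, at adjusted p of 0.0573 to 0.0805. Egln3, an oxygen sensor that is itself a HIF target, stood above all 8 inguinal clones in each interscapular one but did not pass (difference 0.97 ± 0.27 (SE), limma adjusted p = 0.0605). Vegfa, the angiogenic factor, was -0.49 ± 0.16 (adjusted p = 0.118), and the glycolytic Ldha was -0.02 ± 0.13 (adjusted p = 0.967).

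Carbonic anhydrases rose in 3 of 13 measured members (23.1% against 1.93%), with a median of 0.09 (0.18 without BAT6). Beside Car9 and Car12 the third was Car6, a secreted form, at 6.67 in BAT1, 7.32 in BAT6 and 8.69 in BAT8 against 5.38, 5.57 and 6.16. The depots did not overlap and the call held without each clone (difference 1.91 ± 0.32 (SE), limma adjusted p = 0.00431). Car3, the abundant carbonic anhydrase of fat and muscle, was 11.05 in BAT1, 9.51 in BAT6 and 7.60 in BAT8 against 10.68, 11.52 and 14.19 and did not pass (difference -2.47 ± 0.73 (SE), limma adjusted p = 0.0787).

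Fgf21, a metabolic hormone that brown fat can secrete, was 9.73 in BAT1, 10.05 in BAT6 and 11.28 in BAT8, against 5.14, 5.84 and 6.81 in the inguinal clones. The lowest interscapular clone was nearly 3 log2 units above the highest inguinal one (difference 4.51 ± 0.36 (SE), limma adjusted p = 7.62e-06). Its co-receptor gene Klb stood apart in the same clones, as given above without a test. Of its receptor genes, Fgfr1, which pairs with beta-Klotho in fat, was 11.08 in BAT1, 11.84 in BAT6 and 11.27 in BAT8 against 11.40, 11.94 and 12.58, overlapping and not past the threshold (adjusted p = 0.265).

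The promoters of Car9 and Fgf21, 2 of the genes that rose most, and of Plac8, the gene with the smallest inguinal spread among the 15 that fell most, are shown for the short motif ACGTG, the core that hypoxia-inducible factors bind. They come from RefSeq on build GRCm38.p6, span the annotated start and read 5' to 3' on the gene's strand. Capitals mark ACGTG on either strand, so CACGT marks a match on the opposite strand and CACGTG 2 overlapping matches. The Car9 promoter lies at chr4:43506776-43507075 (plus strand), that of Fgf21 at chr7:45615441-45615740 (minus strand) and the first of 2 listed for Plac8 at chr5:100563047-100563346 (minus strand).
Car9: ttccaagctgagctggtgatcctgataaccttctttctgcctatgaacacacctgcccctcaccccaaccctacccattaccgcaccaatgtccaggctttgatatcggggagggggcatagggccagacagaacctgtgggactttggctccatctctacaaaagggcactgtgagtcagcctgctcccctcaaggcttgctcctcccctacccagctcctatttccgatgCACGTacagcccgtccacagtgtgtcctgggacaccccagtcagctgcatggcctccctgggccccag
Fgf21: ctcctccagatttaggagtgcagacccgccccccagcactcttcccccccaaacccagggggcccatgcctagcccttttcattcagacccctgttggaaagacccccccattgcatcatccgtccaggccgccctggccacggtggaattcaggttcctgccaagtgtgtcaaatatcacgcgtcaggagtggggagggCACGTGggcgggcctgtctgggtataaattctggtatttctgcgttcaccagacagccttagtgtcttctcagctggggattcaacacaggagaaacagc
Plac8: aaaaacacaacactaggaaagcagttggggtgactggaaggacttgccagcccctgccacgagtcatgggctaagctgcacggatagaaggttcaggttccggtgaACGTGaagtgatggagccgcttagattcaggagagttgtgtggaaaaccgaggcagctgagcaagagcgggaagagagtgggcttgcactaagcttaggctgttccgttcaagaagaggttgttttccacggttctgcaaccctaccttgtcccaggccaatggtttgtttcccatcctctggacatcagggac

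Of the 30 genes with the largest differences, 18 had a promoter in this table. ACGTG stood in the promoters of 2 of 8 genes that rose (Car9 and Fgf21) and 3 of 10 that fell (Plac8, Slpi and Casp1), and in 19.6% of all 32851 promoters of the same length. TGACGTCA, the full element bound by the cAMP-responsive factor CREB, was in none of the 18 and in 1.79% of all. Its core TGACG was in 4 of 8 that rose and 1 of 10 that fell, and in 20.8% of all. These are matches of letters and not measured sites. The 18 genes had 24 promoters, and a gene was counted if any of its promoters matched. The shares of all are per single promoter, so the units differ.

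Other genes that rose most had varied roles. Plp2, a membrane protein of the endoplasmic reticulum on the X chromosome, was 10.30 in BAT1, 10.79 in BAT6 and 11.35 in BAT8, against 5.88, 6.20 and 6.46, and the depots were over 3 log2 units apart at their nearest (difference 4.62 ± 0.21 (SE), limma adjusted p = 2.09e-08). Rgcc, a regulator of the cell cycle, was 12.95 in BAT1, 12.50 in BAT6 and 12.20 in BAT8, against 6.24, 8.29 and 9.43, with a second probe set at 4.62 (difference 4.43 ± 0.56 (SE), limma adjusted p = 0.000498). Scara3, a scavenger receptor, was highest in BAT1 and apart in all 3 interscapular clones (7.23 to 9.04 against 4.64 to 5.47, adjusted p = 0.000122). Neu2, a cytosolic sialidase, ranged over 6.64 to 8.64 against 4.37 to 5.23 (adjusted p = 0.000491). Scara3 and Neu2 passed the filter only through the interscapular clones, so their rises are set against background signal. Nptx1, a secreted pentraxin best known at synapses, ranged over 8.23 to 10.15 against 4.86 to 7.94 (adjusted p = 0.00449), but a dimmer probe set differed by only 0.42. Pgf, placental growth factor, passed (difference 2.62 ± 0.55, adjusted p = 0.0192) but not without BAT6 (adjusted p = 0.0829) or BAT8 (difference 1.90, adjusted p = 0.108). Rps4l, a copy of the ribosomal protein gene Rps4x whose transcripts its probes may also bind, ranged over 10.80 to 11.17 against 4.50 to 8.60 (adjusted p = 0.00355).

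Hox genes gave the highest share of calls after the brown-selective markers, in both directions. Of 23 measured, 7 rose and 8 fell in interscapular clones, 65.2% of the list against 4.12% of all genes, with a median of -0.02. Of these, Hoxa2, Hoxa4 and Hoxb5 passed the filter on dim genes only through interscapular clones. Hoxc9, Hoxc10, Hoxc13, Hoxa7, Hoxa9 and Hoxa10 passed it only through inguinal clones. The differences of these genes are set against background signal. In the Hoxc cluster 5 of 7 fell. Hoxc10, a gene of the posterior trunk and hindlimb, was 4.40 in BAT1, 4.47 in BAT6 and 4.37 in BAT8, against 9.57, 9.95 and 10.20 in the inguinal clones. The 3 interscapular values lay below the median of their arrays and over 5 log2 units under the nearest inguinal clone (difference -5.50 ± 0.15 (SE), limma adjusted p = 8.46e-11). Hoxc8 (-3.26 ± 0.30), Hoxc6 (-2.59 ± 0.16) and Hoxc9 (-2.44 ± 0.25) fell without overlap too, at adjusted p of 3.35e-05, 6.55e-07 and 0.000101. Hoxc13 was called (-1.11, adjusted p = 0.0431) but not without BAT6, BAT8, B13, D16, F9, M3 or M4 (adjusted p = 0.0512 to 0.198). The anterior pair, Hoxc4 at -0.11 and Hoxc5 at -0.19, missed the threshold.

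Hoxa2, Hoxa3, Hoxa4 and Hoxa5, at the anterior end of their cluster, rose by 0.81 to 1.24, while the more posterior Hoxa7, Hoxa9 and Hoxa10 fell. Hoxa9 was 5.31 in BAT1, 4.95 in BAT6 and 4.79 in BAT8, against 6.91, 7.41 and 8.23 (difference -2.46 ± 0.26 (SE), limma adjusted p = 0.000116). Hoxa9 alone among these 7 held without each clone. Its other probe set, at 5.87 in interscapular and 6.03 in inguinal clones, differed by -0.16. Hoxa3 missed the threshold without any 1 clone other than BAT1 and E4 (adjusted p = 0.0515 to 0.188), and Hoxa2 without BAT1, BAT6 or BAT8 (adjusted p = 0.065 to 0.105). Hoxa4 did so without BAT1 or BAT6 (adjusted p = 0.082 to 0.128), and Hoxa10 without BAT1, BAT6, BAT8 or M3 (adjusted p = 0.0571 to 0.119). Hoxa5 was at the edge of the threshold (adjusted p = 0.0499) and missed it without any 1 clone other than E4 and X3 (adjusted p = 0.0504 to 0.2). Hoxa7 lost the call without BAT8 alone (adjusted p = 0.058). Hoxa11, more posterior, was called higher by 0.62 (adjusted p = 0.0411) and missed the threshold without any 1 clone other than D12, M3 and X3 (adjusted p = 0.0576 to 0.166). Among Hoxb genes, Hoxb5 was 7.60 in BAT1, 7.77 in BAT6 and 7.72 in BAT8, against 5.30, 5.73 and 5.88 (difference 1.998 ± 0.15 (SE), limma adjusted p = 3.77e-06), and Hoxb6 ranged over 8.09 to 8.41 against 7.12 to 7.65 (adjusted p = 0.00457). Both held without each clone. Hoxb5os, a transcript antisense to Hoxb5, rose by 3.56 ± 0.19 (adjusted p = 7.2e-08). Hoxb2, Hoxb3, Hoxb4 and Hoxb9 did not pass, nor did either Hoxd gene measured.

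**Figure D3:**
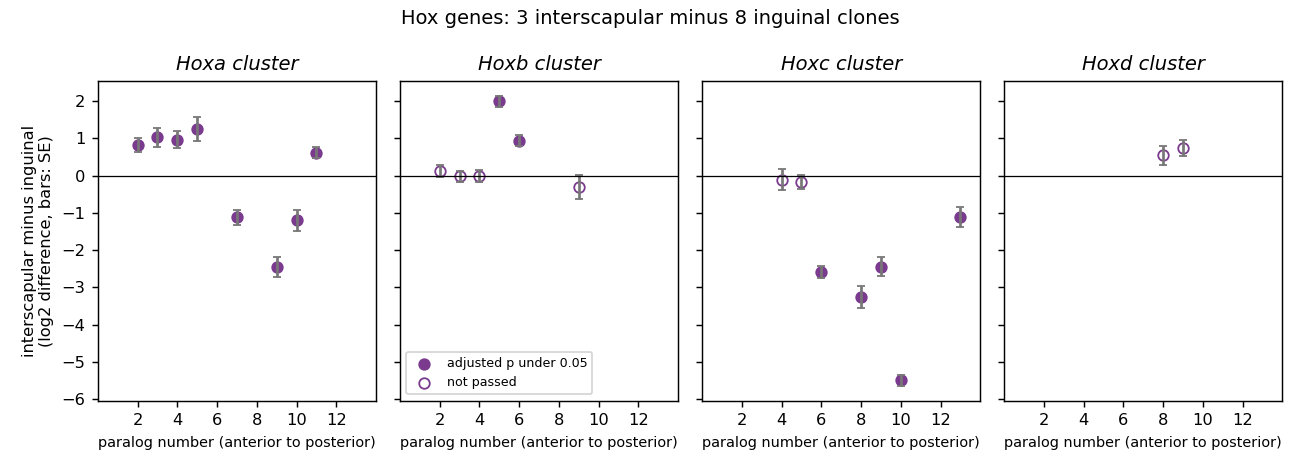
Interscapular minus inguinal log2 difference (3 against 8 clones, bars: SE) of each measured Hox gene, by cluster and by paralog number from anterior to posterior, filled where the adjusted p is under 0.05. Hoxc6 to Hoxc10 lie below 0 down to -5.50, Hoxa2 to Hoxa5 lie above it, and Hoxb5 has the highest value, 1.998.

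Other positional genes were also compared. Of 33 measured T-box, limb and trunk patterning genes, 2 rose (Foxc1 and Msx1) and 2 fell (Tbx1 and Hand2), 12.1% against 4.12% of all genes. Hand2, a factor of limb and heart, was 7.30 in BAT1, 7.19 in BAT6 and 6.81 in BAT8 against 7.99, 8.70 and 9.42 (difference -1.60 ± 0.30 (SE), limma adjusted p = 0.00917), and Tbx1 was 4.52 in BAT1, 5.06 in BAT6 and 4.14 in BAT8 against 5.53, 6.76 and 7.41 (difference -1.999 ± 0.39 (SE), limma adjusted p = 0.0121). Without BAT8 neither passed (adjusted p = 0.0624 and 0.072). Foxc1 (1.09) was lost without BAT6 (0.0966) or BAT8 (0.0978), and Msx1 (0.75) without any 1 clone other than D12 and D16 (adjusted p = 0.057 to 0.189). Tbx15 and Shox2, which mark the inguinal lineage in other work, overlapped between the depots (8.69 to 9.38 against 8.10 to 9.54 and 9.38 to 9.94 against 9.50 to 10.53). Sall1, a zinc finger factor of kidney and limb outside that list, was 4.32 in BAT1, 4.82 in BAT6 and 5.66 in BAT8, against 7.14, 8.06 and 9.60 (adjusted p = 0.000654).

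Of 16 brown-selective markers, 9 passed the filter. Of these 7 rose and none fell, 77.8% of the 9 against 1.93% of all genes called higher. Ebf3 passed the filter only through the 3 interscapular clones, so its rise is set against background signal. These marker lists came from work on brown and beige lines, this study's included, and are not independent evidence of a direction. The list mean was 8.98 in BAT1, 8.94 in BAT6 and 9.44 in BAT8, against 6.33 to 7.38 in the inguinal clones, and the median difference was 2.13 (2.31 without BAT6). Ebf2, a transcription factor of committed brown precursors, was 9.22 in BAT1, 8.23 in BAT6 and 9.30 in BAT8, against 4.88, 5.49 and 6.64 (difference 3.37 ± 0.35 (SE), limma adjusted p = 8.89e-05). Its 2 dimmer probe sets differed by 3.34 and 1.88. Its relative Ebf3 was 7.73 in BAT1, 7.47 in BAT6 and 6.86 in BAT8, against 4.52, 4.74 and 4.87 (difference 2.63 ± 0.18 (SE), limma adjusted p = 1.13e-06). The remaining risers were Fgf21, Trarg1, Pdk4, Hspb7 and Fbxo31. Hspb7, a small heat shock protein, lost the call without BAT8 (adjusted p = 0.0559). Oplah did not pass (0.66, adjusted p = 0.354). Zic1 and Lhx8, patterning genes of classical brown fat, lay below the array median in all 11 clones.

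Beige-selective markers moved the other way in 6 of 11 measured members, 54.5% against 2.2% of all genes called lower, and none rose. The list mean was 7.13 in BAT1, 6.90 in BAT6 and 6.88 in BAT8, against 7.88 to 8.14, and the median difference -1.49 (-1.22 without BAT6). Against all 23 inguinal clones the median was -0.90. Tmem26, a membrane protein used to sort beige precursors, was 5.27 in BAT1, 5.04 in BAT6 and 5.45 in BAT8, against 7.54, 8.13 and 8.79 (difference -2.81 ± 0.26 (SE), limma adjusted p = 3.35e-05). Klhl13, a ubiquitin ligase adaptor, was 4.81 in BAT1, 6.16 in BAT6 and 5.48 in BAT8, against 6.92, 8.62 and 9.23 (difference -2.97 ± 0.39 (SE), limma adjusted p = 0.000692). Slc27a1, a fatty acid transporter, was uniform in the interscapular clones (7.31 in BAT1, 7.38 in BAT6 and 7.44 in BAT8) and lower in each than in any inguinal clone (8.26 to 9.99, difference -1.67 ± 0.30 (SE), limma adjusted p = 0.00724). Slc27a1 followed Adipoq over the 23 inguinal clones (r = 0.740) and averaged 9.05 in the 8 and 7.86 in the other 15. Against all 23 it was -0.90 (limma adjusted p = 0.242), and over all 26 arrays with Adipoq as a covariate -1.19 (0.0262). The part of the selection by Adipoq in this call was not tested. The receptor gene Cd40 fell by 1.60 (limma adjusted p = 0.0038). Of its other probe sets, 1 was at 6.85 in interscapular and 6.95 in inguinal clones (difference -0.10), and 1 differed by -0.77. Sp100 and Tbx1 fell too, but Sp100 not without BAT6 (adjusted p = 0.0713) or BAT8 (0.0529). Cited1 was high in BAT1 alone, BAT6 lay below the inguinal median, and it did not pass, at 8.17 in BAT1, 5.28 in BAT6 and 6.03 in BAT8 against 4.69, 5.60 and 7.86 (difference 0.69 ± 0.67 (SE), limma adjusted p = 0.646).

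Ucp1 did not separate the depots. It was 7.01 in BAT1, 6.37 in BAT6 and 6.19 in BAT8, against 7.55 in D12, 7.27 in E4, 6.55 in D16 and 6.51 in X3. In B13, F9, M4 and M3 it was 6.41, 5.89, 5.56 and 5.51. D12 and E4 exceeded all 3 interscapular clones. The array medians on the same scale were 5.94 in BAT1, 5.84 in BAT6 and 5.91 in BAT8. Of the 8 inguinal clones, 6 had Ucp1 above their array median. Ucp1 was thus near background in several clones of both depots, so the overlap is one of low signals and does not show equal expression. The means were 6.53 ± 0.43 and 6.40 ± 0.74 (SD, n = 3 and 8), a difference of 0.12 (exact permutation test over 165 splits, two-sided p = 0.788, smallest possible 0.0121). The Ucp1 depot difference was 0.64 against all 23 inguinal clones. Its sign turned within scanner 1 (-0.53), within session 2 (-0.17) and without BAT1 (-0.12). It was 0.65 with the chip lot as a block, 0.82 within scanner 2, 1.07 within chip lot 2 and 0.47 over the 11 arrays with Adipoq as a covariate, a fit chosen after seeing the data, and none of these passed. Prdm16, a coregulator that drives the brown fat program, was above all 8 inguinal clones in each interscapular one (6.07 to 6.17 against 5.41 to 5.85) but did not pass (difference 0.48 ± 0.14 (SE), limma adjusted p = 0.0799). Prdm16 lay below the array median in the 8 inguinal clones. Cidea, a lipid droplet protein of brown fat, was above its array median in 1 interscapular clone only and was not tested.

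Thermogenic genes had a positive difference in 15 of 19 measured, beside 5955 of all 12102 genes. Of the 19, 2 rose (Acot2 and Sirt3), 10.5% against 1.93% of all genes, with a median of 0.35 (0.41 without BAT6 and 0.64 against all 23). Their mean level was 8.45 in BAT1, 8.05 in BAT6 and 7.82 in BAT8, against 7.40 to 8.03, and of the inguinal clones only D12 entered the interscapular range. Cox7a1, a subunit of cytochrome oxidase, had the largest difference of the list without passing, at 10.25 in BAT1, 9.55 in BAT6 and 8.39 in BAT8 against 6.46, 7.48 and 9.20 (difference 1.75 ± 0.53 (SE), limma adjusted p = 0.0832). Acot2, a mitochondrial thioesterase, was 11.25 in BAT1, 9.60 in BAT6 and 10.85 in BAT8, against 8.01, 8.995 and 9.58 (difference 1.64 ± 0.34 (SE), limma adjusted p = 0.0183). It lost the call without BAT1 (adjusted p = 0.0822) or BAT8 (0.0905), and its dimmer probe set differed by 0.41. Sirt3, a mitochondrial deacetylase, passed (difference 0.63 ± 0.16 (SE), limma adjusted p = 0.0409) but not without any 1 clone other than D12 and X3 (adjusted p = 0.0571 to 0.153). Ppargc1a, a coactivator of mitochondrial biogenesis (-0.10, adjusted p = 0.95), and Dio2, which activates thyroid hormone (0.16, adjusted p = 0.908), overlapped.

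Fuel oxidation showed smaller differences still. The 24 genes of fatty acid oxidation had a median of 0.24, and only Acot2, shared with the thermogenic list, passed (4.17% against 1.93% of all genes called higher). By limma none of 17 genes of the TCA cycle (median 0.14) and none of 20 of branched-chain amino acid breakdown (median 0.28) passed, and 0 and 3 had an unadjusted p under 0.05, beside 2252 of all 12102 genes. Without BAT6 these medians were 0.20, 0.11 and 0.23, and against all 23 inguinal clones 0.58, 0.37 and 0.59. In each of the 3 lists BAT1 had the highest and BAT8 the lowest mean of the interscapular clones, the order of their Adipoq. The fatty acid oxidation mean, for example, was 10.70 in BAT1, 10.48 in BAT6 and 10.04 in BAT8, against 9.93 to 10.51.

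**Figure D4:**
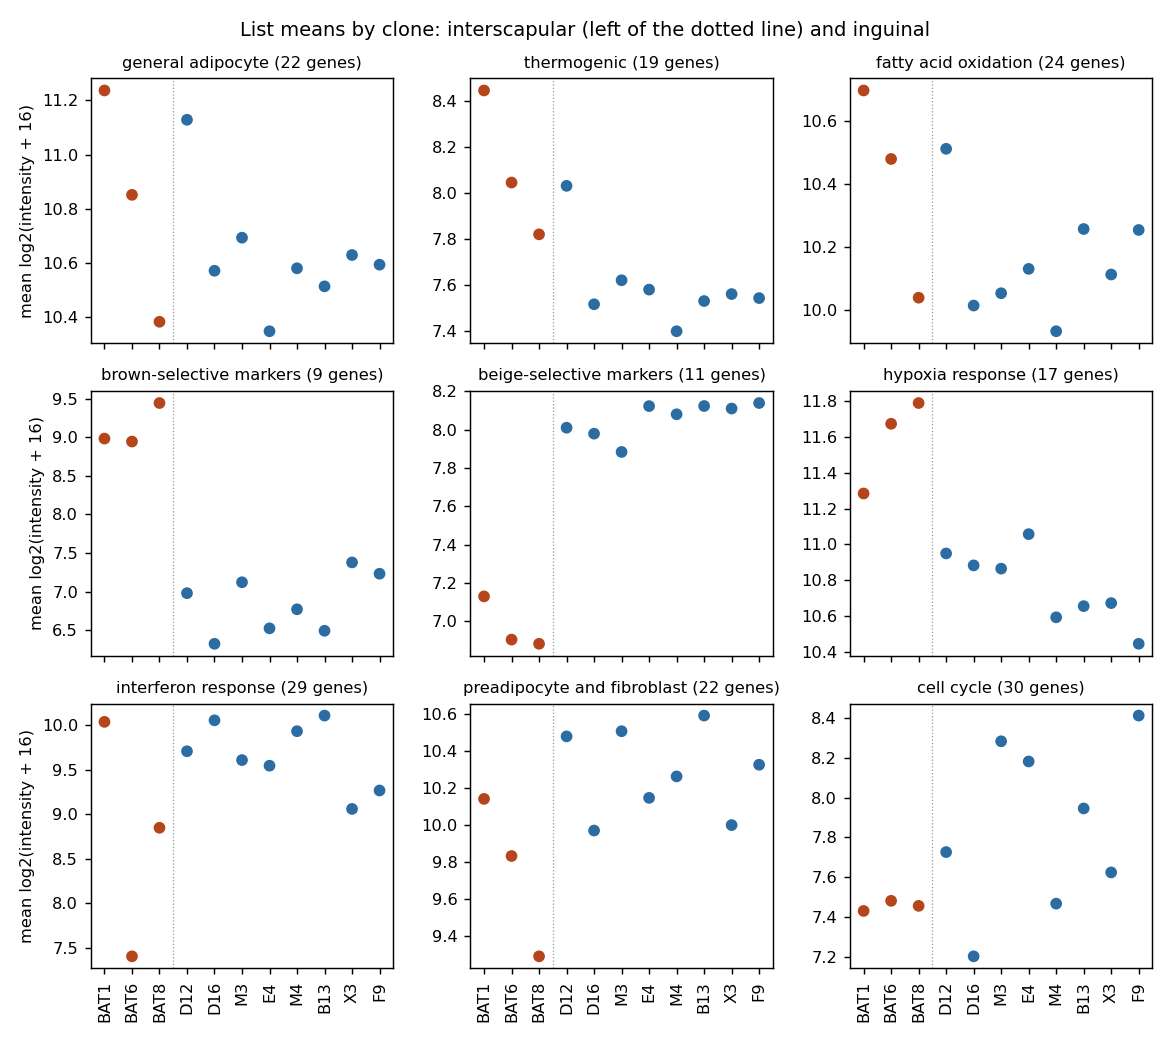
Mean log2(intensity + 16) of 9 gene lists in each of the 11 clones, interscapular clones left of the dotted line and the 8 inguinal clones right of it in order of falling Adipoq, with a separate vertical scale for each list. Brown-selective markers do not overlap between the depots (8.94 to 9.44 against 6.33 to 7.38), and the interferon list spreads from 7.40 in BAT6 to 10.03 in BAT1.

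Among 19 measured genes of glycolysis 1 passed, Aldoc (5.26% against 1.93% of all genes called higher), and their median was -0.02 (0.02 without BAT6). Aldoc, an aldolase, was 7.33 in BAT1, 8.08 in BAT6 and 8.09 in BAT8, against 4.74, 5.36 and 5.45 (difference 2.58 ± 0.20 (SE), limma adjusted p = 7.04e-06). It passed the filter only through the interscapular clones, so its rise and the share of the list are set against background signal. A second, dimmer probe set of Aldoc differed by -0.20. Pdk4, of the brown-selective list, a kinase that inhibits pyruvate dehydrogenase, was 12.65 in BAT1, 12.999 in BAT6 and 13.24 in BAT8, against 10.38, 10.74 and 11.55 (difference 2.13 ± 0.26 (SE), limma adjusted p = 0.000459). Tbc1d4, the Akt substrate that releases glucose transporter vesicles, was 7.68 in BAT1, 8.08 in BAT6 and 7.34 in BAT8, against 5.78, 6.22 and 6.65 (difference 1.45 ± 0.21 (SE), limma adjusted p = 0.00151). Trarg1, which helps recycle the same transporter, was 8.71 in BAT1, 9.22 in BAT6 and 9.48 in BAT8, against 5.24, 6.44 and 7.99 (difference 2.51 ± 0.48 (SE), limma adjusted p = 0.00982). The depots did not overlap in these 4 genes, and only Trarg1 lost the call in a leave-out, without BAT6 (adjusted p = 0.0559) or BAT8 (0.0628). Trarg1, also of the brown-selective list, and Tbc1d4 were the 2 that rose of 17 tested insulin signalling genes (11.8% against 1.93%), whose median over the 19 kept was 0.17 (0.10 without BAT6). The insulin receptor gene Insr, described without a test as a general adipocyte gene, was 8.92 in BAT1, 9.56 in BAT6 and 9.27 in BAT8, against 8.40, 8.58 and 8.73. The transporter gene Slc2a4 itself, also untested, overlapped at 8.71 in BAT1, 8.23 in BAT6 and 6.81 in BAT8 against 6.90, 7.29 and 8.07.

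Genes that respond to cAMP and genes that relay it were compared after forskolin. With no line without forskolin, their values are levels and not a response. Of 23 genes known to respond to cAMP, none passed in limma (4 at an unadjusted p under 0.05), with a median of 0.18 (0.45 without BAT6). Their mean was 10.93 in BAT1, 10.19 in BAT6 and 10.90 in BAT8, against 10.31 to 10.97, with BAT6 below all 8 inguinal clones. Nr4a1, an early cAMP target, was 11.94 in BAT1, 10.87 in BAT6 and 12.58 in BAT8 against 10.77, 11.20 and 11.68, and Fos was 10.99 in BAT1, 10.48 in BAT6 and 11.44 in BAT8 against 9.97, 10.62 and 11.18. Of 14 genes of protein kinase A and adrenergic receptors 1 passed (7.14% against 4.12% of all genes), Prkar1b, a regulatory subunit of the kinase best known in neurons. It was 5.86 in BAT1, 6.65 in BAT6 and 8.06 in BAT8, against 8.32, 9.77 and 10.06, and held without each clone (difference -2.74 ± 0.41 (SE), limma adjusted p = 0.00213).

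Plac8, which encodes a small cysteine-rich protein linked to brown fat function in mice, had the smallest inguinal spread of the 15 genes that fell most. It was 9.92 in BAT1, 10.37 in BAT6 and 9.18 in BAT8, against 13.96, 14.13 and 14.16 in the inguinal clones (difference -4.27 ± 0.20 (SE), limma adjusted p = 2.09e-08). Slpi, a secreted inhibitor of leukocyte proteases, was 8.11 in BAT1, 8.78 in BAT6 and 8.37 in BAT8, against 11.19, 12.47 and 12.94 (difference -3.80 ± 0.32 (SE), limma adjusted p = 1.32e-05). Casp1, the inflammasome protease, was 5.56 in BAT1, 5.38 in BAT6 and 5.64 in BAT8, against 8.31, 8.65 and 9.38 (difference -3.15 ± 0.20 (SE), limma adjusted p = 8.45e-07). Csf2rb, the shared signalling chain of the receptors for GM-CSF, IL-3 and IL-5, lay near background in all 3 interscapular clones (4.61 in BAT1, 4.77 in BAT6 and 4.57 in BAT8) and varied widely in the inguinal clones (6.92, 9.21 and 11.72, difference -4.38 ± 0.73 (SE), limma adjusted p = 0.00412). A dimmer probe set of Csf2rb differed by -2.43. The groups did not overlap in any of these 4 genes.

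Chemokines fell in 3 of 16 measured members (18.8% against 2.2%), with a median of -0.49, -0.20 without BAT6, and none rose. The list mean was 10.62 in BAT1, 9.23 in BAT6 and 9.47 in BAT8, against 10.25 to 11.15. Ccl11, or eotaxin, which draws eosinophils, was 8.21 in BAT1, 4.92 in BAT6 and 7.44 in BAT8, against 11.01, 11.91 and 13.09 (difference -5.11 ± 0.58 (SE), limma adjusted p = 0.000183), and BAT6 was its lowest clone. Ccl9, a myeloid chemokine, was 10.65 in BAT1, 10.17 in BAT6 and 9.42 in BAT8, against 11.31, 11.77 and 12.32 (difference -1.73 ± 0.27 (SE), limma adjusted p = 0.00273). Ccl2, which draws monocytes, was below the inguinal range only in BAT6 and BAT8 (13.46 in BAT1, 11.19 in BAT6 and 10.95 in BAT8, against 12.90, 13.66 and 13.97), and its call (0.0447) was lost without any 1 clone other than BAT1, D12 and E4 (adjusted p = 0.0565 to 0.227).

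Interferon response genes split the interscapular clones. Their mean was 10.03 in BAT1, 7.40 in BAT6 and 8.85 in BAT8, against 9.06 to 10.10, so BAT6 lay far below and BAT8 a little below the inguinal clones and BAT1 within their range. Of 29 measured, 27 had a negative difference, 3 passed as lower (10.3% against 2.2%) and none rose. The median was -0.94 with all 3 clones and -0.12 without BAT6, the array with the high Gapdh 3' to 5' ratio. The part of RNA quality in this result was not tested. Ifit1, an interferon-induced antiviral gene, was 12.21 in BAT1, 6.96 in BAT6 and 9.93 in BAT8 against 9.59, 11.03 and 11.75 and did not pass (adjusted p = 0.489). Trim25, a ubiquitin ligase of the RIG-I pathway, did not follow the split. It was 8.90 in BAT1, 8.39 in BAT6 and 8.10 in BAT8, against 10.86, 11.14 and 11.56, and held without each clone (difference -2.71 ± 0.20 (SE), limma adjusted p = 3.77e-06). The other genes that fell were Sp100, of the beige list above, and Bst2, or tetherin, which passed (difference -1.79 ± 0.36 (SE), limma adjusted p = 0.0143) but not without BAT6 (0.0861) or BAT8 (0.072).

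Antigen presentation gave 1 rise, in the class II gene H2-Ab1 (difference 1.74 ± 0.43 (SE), limma adjusted p = 0.0386), and 1 fall, in the immunoproteasome gene Psmb8 (difference -1.19 ± 0.28 (SE), limma adjusted p = 0.0325), of 15 measured. Together they were 13.3% of the list, against 4.12% of all genes. H2-Ab1 was lost without BAT6, BAT8, B13, D12, D16, F9 or M3 (adjusted p = 0.0504 to 0.186), and Psmb8 without BAT6, B13 or E4 (adjusted p = 0.0511 to 0.093). None of 15 complement and acute phase genes passed in limma (median 0.03, 1 at an unadjusted p under 0.05).

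Glutathione transferases and related genes had a negative difference in 21 of 23 members, beside 6147 of all 12102 genes, with a median of -0.40 (-0.39 without BAT6). Their mean was 9.99 in BAT1, 9.65 in BAT6 and 9.42 in BAT8, below the 10.12 to 10.52 of the inguinal clones. Of the 23, 4 passed as lower (17.4% against 2.2%). Gsta4, which detoxifies the lipid aldehyde hydroxynonenal, was 8.60 in BAT1, 9.002 in BAT6 and 6.08 in BAT8, against 10.98, 12.04 and 12.94 (difference -4.23 ± 0.53 (SE), limma adjusted p = 0.000484). Gsta3, Mgst2 and Gstt1 passed, but Gsta3 not without BAT1, BAT8, B13, F9 or M3 (adjusted p = 0.0508 to 0.169), Mgst2 not without BAT6, BAT8, F9 or M3 (adjusted p = 0.0523 to 0.165) and Gstt1 not without BAT6 or BAT8 (adjusted p = 0.119 to 0.136).

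Matrix and precursor genes included some of the largest falls. Efemp1, a fibulin of the extracellular matrix, was 8.55 in BAT1, 5.03 in BAT6 and 4.47 in BAT8, against 9.63, 11.43 and 12.47, lower in each interscapular clone and most so in BAT6 and BAT8 (difference -5.37 ± 0.73 (SE), limma adjusted p = 0.000841). Mmp3, or stromelysin, was 9.29 in BAT1, 8.64 in BAT6 and 9.10 in BAT8, against 10.61, 12.56 and 14.26 (difference -3.40 ± 0.54 (SE), limma adjusted p = 0.00334). Fmod, a collagen-binding proteoglycan, ranged over 4.50 to 7.23 against 7.54 to 10.37 (adjusted p = 0.00496). Of its 5 other probe sets, 4 differed by -2.53 to -1.74 and 1 by 0.25. That 1 averaged 8.26 in the interscapular clones, where the probe set used here averaged 5.64. It was thus well above background and showed no fall, so the fall of Fmod depended on the probe set. Thy1, a surface glycoprotein of fibroblasts and precursors, was 10.32 in BAT1, 11.41 in BAT6 and 9.86 in BAT8, against 12.51, 12.85 and 13.17 (difference -2.31 ± 0.26 (SE), limma adjusted p = 0.000213). Of 22 measured preadipocyte and fibroblast genes, 3 fell (Efemp1, Thy1 and Sfrp1) and none rose, 13.6% against 2.2%, with a median of -0.45 (-0.42 without BAT6). The defining precursor marker Pdgfra overlapped, at 11.06 in BAT1, 11.54 in BAT6 and 11.65 in BAT8 against 11.28, 11.93 and 12.52. Of 36 collagens and matrix genes 1 fell, a share of 2.78% near the 2.2% of all genes called lower. It was Thbs2 (difference -1.15 ± 0.24 (SE), limma adjusted p = 0.0178), which was lost without BAT1 (0.0792) or BAT6 (0.0754).

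Among Wnt genes Rspo3, a secreted enhancer of Wnt signalling, was 8.48 in BAT1, 6.59 in BAT6 and 7.99 in BAT8, against 4.27, 4.77 and 5.54, and held without each clone (difference 2.88 ± 0.34 (SE), limma adjusted p = 0.000327). Its other probe set, near background, differed by 0.08. Rspo3 passed the filter only through the interscapular clones, so its rise is set against background signal. The antagonists Sfrp1 (difference -1.42 ± 0.30 (SE), limma adjusted p = 0.0186) and Dkk3 (difference -1.53 ± 0.38 (SE), limma adjusted p = 0.0409) fell, but Sfrp1 was lost without BAT6 or BAT8 (adjusted p = 0.0885 to 0.105) and Dkk3 without BAT6, BAT8, D16, E4, F9, M3 or M4 (adjusted p = 0.0528 to 0.225). Of 19 measured Wnt genes these were the 3 that passed (15.8% against 4.12%). Ltbp2, a binder of latent TGF-beta, was the 1 of 23 BMP and TGF-beta genes that passed, a share of 4.35% near the 4.12% of all genes (-1.11, adjusted p = 0.0431) and was lost without BAT1, BAT8, B13, D16, E4, F9 or M3 (adjusted p = 0.0587 to 0.154).

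Cell cycle genes had a negative difference in 25 of 30 members, and 3 passed as lower (10% against 2.2%). The median was -0.34 against the 8 inguinal clones (-0.41 without BAT6) and -0.79 against all 23. Their mean was 7.43 in BAT1, 7.48 in BAT6 and 7.46 in BAT8, within the 7.20 to 8.41 of the 8. Cdc6, which loads helicases at replication origins, was 5.15 in BAT1, 5.43 in BAT6 and 4.79 in BAT8, against 6.05, 6.43 and 6.91, and held without each clone (difference -1.33 ± 0.21 (SE), limma adjusted p = 0.00296). Cdkn2a and E2f1 were the other genes that fell, but Cdkn2a was lost without any 1 clone other than D16, F9 and M3 (adjusted p = 0.052 to 0.176) and E2f1 without BAT1, BAT8, D16, E4, F9, M3 or M4 (adjusted p = 0.0512 to 0.141). Crabp1, which binds retinoic acid in the cytosol, was 6.78 in BAT1, 5.22 in BAT6 and 5.39 in BAT8, against 7.68, 9.51 and 9.92 (difference -3.38 ± 0.45 (SE), limma adjusted p = 0.000789). Hsd11b1, which regenerates active glucocorticoid, rose by 1.70 (adjusted p = 0.0298) but not without BAT1 (0.0538), BAT6 (0.116) or BAT8 (0.117). Cck, a peptide hormone, was 6.19 in BAT1, 10.01 in BAT6 and 6.18 in BAT8, against 9.20, 11.14 and 12.68. BAT6 lay within the inguinal range and BAT1 and BAT8 below it (difference -3.56 ± 0.78 (SE), limma adjusted p = 0.0222), and the call was lost without BAT1 (0.094) or BAT8 (0.121). In scan session 2, with BAT6 and D16 alone, Cck was 0.81 higher in BAT6. Ptn, or pleiotrophin, fell by 3.39 (adjusted p = 0.0156) and was lost without BAT8 (0.0899). Its other probe sets differed by -3.53 and 0.01.

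Against the 8 inguinal clones and not against all 23, 65 genes passed, and the 10 with the largest difference are named here. The limma values of both comparisons, which share 11 arrays, are given side by side. Akr1cl, an aldo-keto reductase, was -3.19 (adjusted p = 0.00229) against the 8 and -2.05 (0.0929) against all 23. Star, which carries cholesterol into mitochondria, was -2.58 (adjusted p = 0.0038) against the 8 and -2.05 (0.0569) against all 23. Ccl9 was -1.73 (adjusted p = 0.00273) against the 8 and -0.75 (0.416) against all 23. The mean of the 8 was above that of the other 15 inguinal clones in these genes, 8.51 and 6.77 for Akr1cl, 8.76 and 7.94 for Star and 11.81 and 10.31 for Ccl9. Hs6st2, a heparan sulfate sulfotransferase, was 1.95 (adjusted p = 0.0218) against the 8 and 1.37 (0.0512) against all 23. The rest of the 10 were Pgf, Il33, Armh4, Gsta3, Ccdc80 and Bdh1, with differences of -2.58 to 2.62. Of the other genes named with a test, Slc27a1, Rxra and Cdkn2a also missed the threshold against all 23 (adjusted p = 0.242, 0.283 and 0.0748). Il33 missed the threshold without any 1 clone other than F9 (adjusted p = 0.0518 to 0.157), Armh4 without any 1 clone other than D12, E4 and X3 (adjusted p = 0.0511 to 0.146) and Bdh1 without any 1 clone other than F9 and X3 (adjusted p = 0.0544 to 0.224). Gsta3 missed it without BAT1, BAT8, B13, F9 or M3 (adjusted p = 0.0508 to 0.169), Ccdc80 without BAT6 (adjusted p = 0.0824) and Hs6st2 without any interscapular clone (0.071 to 0.0757).

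In the other direction 869 genes passed against all 23 and not against the 8, and the 10 with the largest difference against the 23 are named. Ffar4, a receptor for long-chain fatty acids, was 1.61 (adjusted p = 0.111) against the 8 and 2.54 (0.0104) against all 23. It was 9.92 in BAT1, 8.98 in BAT6 and 8.48 in BAT8, against 6.46, 7.46 and 9.40 in the 8 and a mean of 6.09 in the other 15. Trpv2, a cation channel, was 1.47 (adjusted p = 0.191) against the 8 and 2.22 (0.0106) against all 23. Sult1a1, a phenol sulfotransferase, was 1.62 (adjusted p = 0.272) against the 8 and 2.80 (0.0263) against all 23, and Serpinb9g was 2.13 (adjusted p = 0.124) against the 8 and 3.08 (0.0187) against all 23. Mgp, a calcification inhibitor, was 2.60 (adjusted p = 0.0685) against the 8 and 2.56 (0.00692) against all 23, with 11.91 in BAT1, 8.41 in BAT6 and 7.28 in BAT8, where BAT1 stood far above the others. Apoa4, an apolipoprotein, was 2.65 (adjusted p = 0.0636) against the 8 and 3.01 (0.000291) against all 23, with 5.19 in BAT1, 8.02 in BAT6 and 10.02 in BAT8. The rest of these 10 were Ppbp, Slc6a12, Omd and Hs3st1, at -2.65, 2.02, -1.86 and -2.21 against the 8. A larger number of inguinal clones also lowers the threshold a difference must reach, so a pass in 1 comparison alone does not show that the differences differ.

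**Figure D5:**
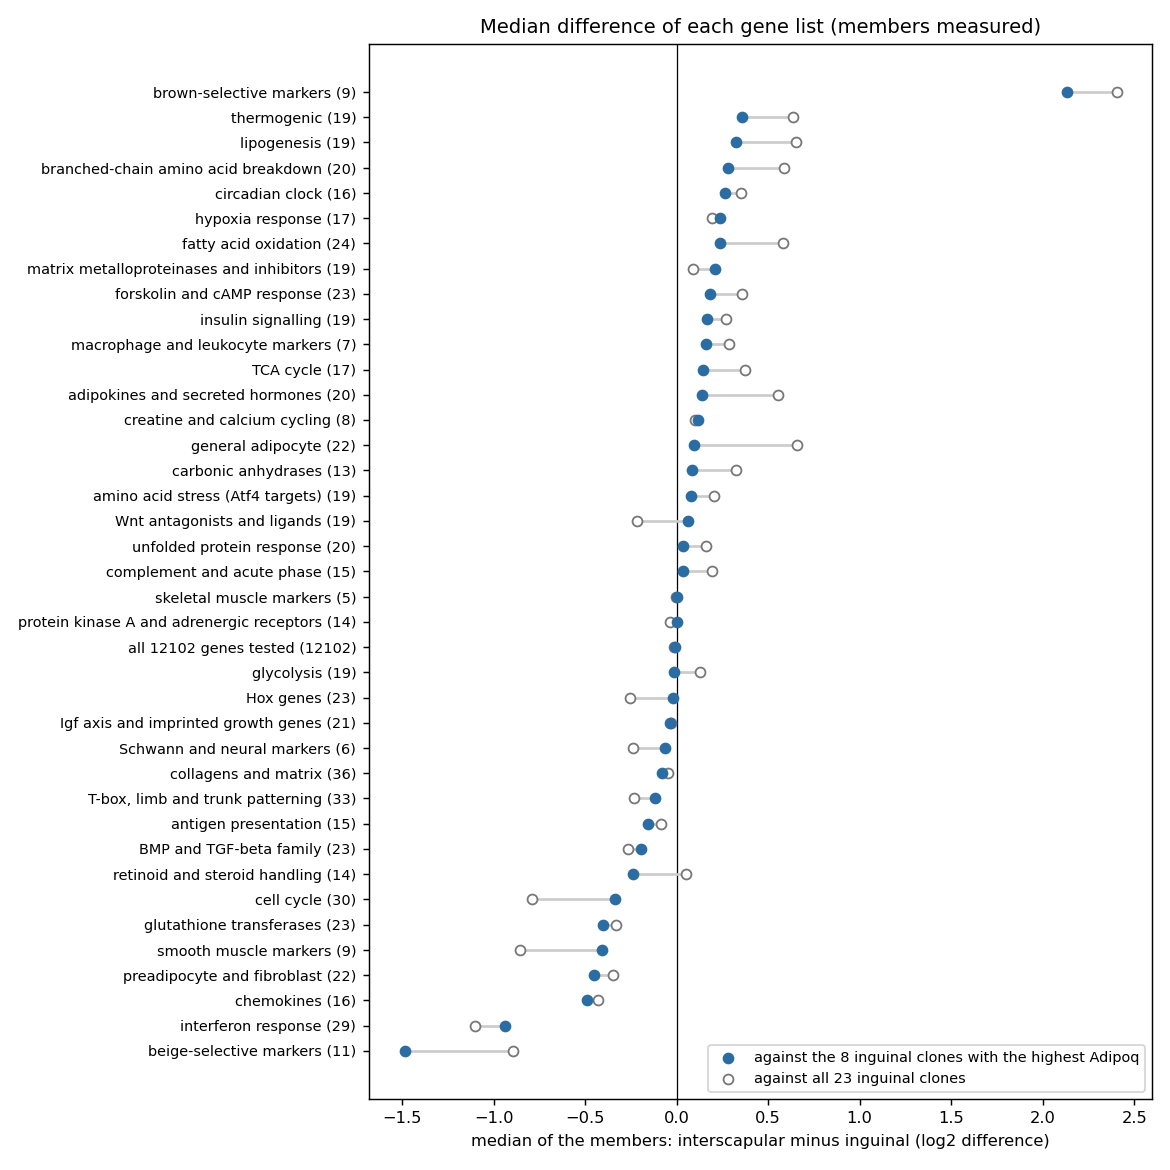
Median log2 difference of each list with 5 or more measured genes, interscapular minus inguinal, against the 8 inguinal clones with the highest Adipoq (filled) and against all 23 (open), with the number of genes measured in brackets. The general adipocyte list lies at 0.09 against the 8 and 0.66 against the 23, while brown-selective markers stay at 2.13 and 2.41.

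Of the tested markers of other cell types (7 macrophage, 9 smooth muscle, 5 skeletal muscle, 3 endothelial and 6 Schwann or neural) none passed in limma, and 2, 2, 0, 0 and 2 had an unadjusted p under 0.05. Of macrophage and leukocyte genes, 8 of 16, Ptprc among them, rose above the array median in no clone, and the list summed to 2306 to 3000 intensity units in interscapular clones, against 1347 to 1976 in the inguinal ones. Cd68, which fat cells can also express, was at 8.29 in BAT1, 9.74 in BAT6 and 10.48 in BAT8 against 6.75, 7.65 and 9.43 (adjusted p = 0.0786). Endothelial genes were below the median throughout in 7 of 10, including Pecam1 and Cdh5, and skeletal muscle genes in 11 of 19, including Acta1 and Myh3. Schwann and neural genes were so in 4 of 11, including Sox10. Smooth muscle genes, which cultured fibroblasts also express, summed to 12808 to 16068 intensity units in interscapular clones, against 14465 to 30368, and Acta2 overlapped (10.84 to 11.56 against 10.82 to 13.28).

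In the lists not yet named, amino acid stress targets of Atf4 had 2 rises of 19 (Atf3 and Vldlr, 10.5%), the unfolded protein response 2 of 20 (Atf6 and Herpud1, 10%) and creatine and calcium cycling 1 of 8 (Itpr2, 12.5%). The circadian clock had 1 of 16 (Dbp, 6.25%). These shares stand beside the 1.93% of all genes called higher, and each rests on 1 or 2 genes. The metalloproteinases and their inhibitors had 1 rise (Adamts5) and the fall of Mmp3 of 19 (10.5% against 4.12%). None of 21 Igf axis and imprinted genes passed in limma (7 at an unadjusted p under 0.05). The medians of these lists lay between -0.04 and 0.26. Atf6 was lost without BAT6 (adjusted p = 0.0554), Dbp without BAT1 or BAT8 (adjusted p = 0.0874 to 0.133), Atf3 without BAT1, BAT6, BAT8, D16, E4, F9 or M4 (adjusted p = 0.0508 to 0.164) and Vldlr without BAT6, BAT8, B13, F9, M3 or M4 (adjusted p = 0.0533 to 0.169). Herpud1 was lost without BAT6, BAT8, D12, D16, E4, F9 or M3 (adjusted p = 0.052 to 0.176), Itpr2 without BAT1, BAT6, BAT8, B13, F9, M3 or M4 (adjusted p = 0.0506 to 0.141) and Adamts5 without any 1 clone other than M4 (adjusted p = 0.0563 to 0.21). The adipokine list, of which 18 of 20 were tested, gave Fgf21, Cck and Ptn alone (16.7% against 4.12% of all genes). The retinoid and steroid list gave Crabp1, Hsd11b1 and the receptor gene Rxra (-0.87, limma adjusted p = 0.0436), of 14 measured (21.4% against 4.12%). Rxra was lost without any 1 clone other than BAT8, E4 and X3 (adjusted p = 0.0598 to 0.236). Its other probe sets differed by 0.12 and -0.11.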

How the data were processed

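Total RNA of each clone was labelled as biotin cRNA and hybridised to 1 Affymetrix mouse expression array, per the labels. The deposited values are linear signal intensities per probe set as the authors supplied them; the summarisation and scaling steps are not given in the sources used here. Of 45101 probe sets, 34958 had 1 gene symbol in the platform annotation, 932 had several and 9211 none, and 34754 of the named were matched to the RefSeq gene table for GRCm38.p6. Intensities were taken as log2(intensity + 16) with no further scaling. The probe set with the highest mean over the 26 arrays stood for each of 18194 genes, and 12102 genes above the array median in at least 3 of the 11 arrays were kept.

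The 3 interscapular clones were compared with the 8 inguinal clones by limma 3.58.1 (lmFit and eBayes, R 4.3.3) with p-values adjusted over the 12102 genes by the Benjamini-Hochberg method (threshold 0.05). Ucp1 also had an exact permutation test (scipy 1.17.1). General adipocyte and lipogenesis genes share the basis of the selection. They were in the fit and in the counts over all genes, Klb among the 30 largest differences, but their own p-values are not reported. The fit was tested on simulated data of the same size. It recovered 67% of planted differences of 1 log2 unit and 99% of those of 2, with 6 false calls. The simulated clones had independent normal values with the inguinal SD in both depots and no batch or RNA quality effect. These rates therefore do not describe the real arrays. The members, the gene lists and the tests were chosen with earlier results of these data known. Genes are named by a rule: the 15 genes with the largest difference each way among those that passed without overlap, up to 6 passing genes each way of each list, every Hox gene that passed, 10 genes each way that passed against 8 or 23 inguinal clones but not both, and the markers of each cell type. Genes named beyond that rule were chosen after their values were seen. Alternatives changed the choice of inguinal clones, the pseudocount, filter, scaling and probe set, the limma settings, the scan batches and the clones left out. Array number, with 3 interscapular clones, limits the precision. Batches were read from the headers of the scanner files, without dates.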

Additional observations from a re-analysis of the deposited data

Results flagged for a closer look

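In 10 of 133 genes screened, 1 of the 8 inguinal clones stood apart from the rest by Dixon's test. Chance flags about 1 in 20 groups. The low clones were B13 for Klb (5.49), X3 for Cd36 (11.35), D12 for Klhl13 (6.92) and Prkar1b (8.32), and M4 for Hoxa7 (5.97). E4 was low for Hoxb5 (5.30) and Ccdc80 (11.04), and F9 for Il33 (11.37). The high clones were E4 for Casp1 (9.38) and D16 for Epas1 (9.61). Values are log2(intensity + 16). Among these genes Klhl13, Prkar1b, Hoxb5, Casp1, Hoxa7 and Ccdc80 kept their depot call without the clone that stood apart. Hoxa7 lost its call without BAT8 and Ccdc80 without BAT6. Epas1 kept its call without D16 and lost it without 7 other inguinal clones, whereas Il33 lost its call without 10 of the 11 clones.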

How the results depend on the processing

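The 499 genes that differed became 859 and 962 with the 10 and 12 inguinal clones of highest Adipoq, 1303 with all 23 and 1257 with all 26 arrays and Adipoq as a covariate. They were 327 when only genes above the array median in all 11 arrays were tested (fewer genes), 188 with the chip lot as a block and 32 with the fluidics station as a block. With fewer arrays they were 65 within scanner 1, 112 within scanner 2, 207 within scan session 1 and 41 within chip lot 2. Without 1 clone they ranged from 201 (BAT6) to 602 (X3). The genes that differ by at least 1 log2 unit, 292 as reported, became 498 with all 23 inguinal clones, 458 with the covariate, 165 under the strict filter, 169 and 32 with the chip lot and fluidics blocks, and 65, 112, 181 and 41 within scanner 1, scanner 2, session 1 and lot 2. They ranged from 185 to 331 without 1 clone. The genes whose depots do not overlap, 847 as reported, became 1317 with 6 inguinal clones, 360 with all 23, and 903 (without M3) to 1746 (without BAT1) when 1 clone was left out. An alternative chosen after seeing the data, the inguinal clones nearest in Adipoq to each interscapular clone, gave 1192 genes, 459 of at least 1 log2 unit. Another, the 11 arrays with Adipoq as a covariate, gave 339 genes that differ between depots, 250 of them among the 499, and 59 of the 95 named genes that passed kept the call. The Ucp1 depot difference of 0.12 ranged from -0.12 to 0.29 without 1 clone, where it was negative without BAT1 (-0.12) and M3 (-0.0053). It was also negative with the fluidics block (-0.26), within scanner 1 (-0.53) and within session 2 (-0.17), and it was 0.65 with the chip lot block, 0.82 within scanner 2, 1.07 within chip lot 2 and 0.47 under each alternative chosen after seeing the data. The Cck depot difference turned to 0.81 within session 2, which held 1 clone of each depot. Apart from Cck there, none of the 95 named genes that passed changed direction under any alternative that gave it a value. The 95 were picked as passing in these same arrays, so this is a description and not support. Of the 95, 21 passed with the fluidics block, 47 with the lot block, 49 within session 1 and 46 without each interscapular clone. The causes were not tested. No paired analysis was possible because the labels pair no interscapular clone with an inguinal one. Genes below the array median in 1 depot give differences set by background signal.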

Other observations

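The gene families here were chosen after their values were seen, so their counts are descriptions. Coenzyme Q genes rose in 3 of 11 measured members, beside 1.93% of all genes called higher. Coq8a, an atypical kinase needed for coenzyme Q synthesis, was 9.17 in BAT1, 10.13 in BAT6 and 8.82 in BAT8, against 6.80, 7.19 and 8.17 (lowest, median and highest) in the 8 inguinal clones. The depots did not overlap (difference 2.01 ± 0.31 (SE), limma adjusted p = 0.00254). Coq10a, which chaperones coenzyme Q, was 0.81 higher (limma adjusted p = 0.00862), and it and Coq8a passed without each interscapular clone. Coq9 was 0.74 higher (limma adjusted p = 0.041) but did not pass without each of them. The other 8 did not pass, at differences of -0.35 to 0.26, so the list split between a few members and the rest.

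Both chains of the GM-CSF receptor fell. Csf2ra, the ligand-specific chain, was 6.30 in BAT1, 5.98 in BAT6 and 5.51 in BAT8, against 7.74, 8.47 and 8.88 in the inguinal clones (difference -2.48 ± 0.23 (SE), limma adjusted p = 3.35e-05), and Csf2rb was described above. Hgf, hepatocyte growth factor, was 5.05 in BAT1, 5.85 in BAT6 and 5.09 in BAT8, against 6.96, 8.45 and 9.63 (difference -2.99 ± 0.49 (SE), limma adjusted p = 0.0038). The gene of its receptor, Met, overlapped between the depots at a difference of -0.24. Of the aldo-keto reductases 1C, Akr1cl and Akr1c14 fell, the second by 2.47 (limma adjusted p = 0.00231), and Akr1c13 did not pass at -0.56. Fgfr2 and Fgfr3, other receptor genes of the Fgf family, did not pass at -0.80 and -0.20.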
